A study of Mus musculus with 12 samples.

Results

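The 6 RNA-seq libraries of this study of mouse striatum lay in 2 sets that crossed the treatment. Set B held the pools saline 2, methamphetamine 1 and methamphetamine 3, and set A held saline 1, saline 3 and methamphetamine 2. The sets were read from the deposited log2 CPM values themselves (CPM, reads of a gene scaled to a common library size): they are the libraries on the 2 sides of the first principal component. Every set difference below is therefore a description of these 6 libraries, given without a test. The sets take in 6 of the 12 samples analysed, the other 6 being CLIP-seq libraries of the same pools, and the genes described are the 13311 of 18208 with a mean log2 CPM of at least 1. All mice were wild-type C57BL/6J animals, bred from heterozygous Hnrnph1 mutant males and C57BL/6J females, and were 50 to 100 days old. They received saline at 10 ml/kg on days 1 and 2, and on day 3 either saline again or the psychostimulant methamphetamine at 2 mg/kg, injected intraperitoneally. Whole striata were taken 30 min later, and each pool joined the striata of 4 mice, 2 females and 2 males, drawn from several litters. RNA for RNA-seq came from a part of each pool set aside before crosslinking, and about 0.2 ng of RNA entered each library. The labels name no batch, litter or dissection that follows the sets, and mutant mice were not analysed here.

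The striatum is the input station of the basal ganglia. Most of its neurons are GABA-releasing spiny projection neurons, which fall into a direct-pathway class with D1 dopamine receptors and an indirect-pathway class with D2 receptors, mixed with a smaller number of interneurons, astrocytes, oligodendrocytes, microglia and vascular cells. It borders cortex, septum and the lateral ventricle with its ependyma and choroid plexus, so markers of those tissues may reflect what a dissection holds. In pooled tissue, fewer cells of a type and less RNA per cell cannot be told apart.

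Read totals did not part the sets, at 3935160 (saline 1) to 5091839 (methamphetamine 3) recovered reads per library. The effective library size behind the deposited values did: it was 0.860 to 0.904 times the read total in set A and 1.01 to 1.02 times in set B. The 5 genes with the most reads took 10.1 to 12.2% of the reads of set A libraries and 5.06 to 7.10% of those of set B. Striatal markers were abundant in all 6 libraries. The gene of the dopamine-signalling protein DARPP-32, Ppp1r1b, lay between 10.69 and 11.70 log2 CPM, whereas Hnrnph1 itself lay between 4.74 and 5.23 with the sets overlapping.

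The first principal component held 58.7% of the variance and the second 14.0%. On the first, the set A libraries scored -20.9 (saline 1), -44.3 (saline 3) and -35.6 (methamphetamine 2), and the set B libraries scored 36.1 (saline 2), 26.6 (methamphetamine 1) and 38.1 (methamphetamine 3). Each treatment thus had libraries on both sides. The second component set methamphetamine 3 apart from the other 2 libraries of set B.

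**Figure D1:**
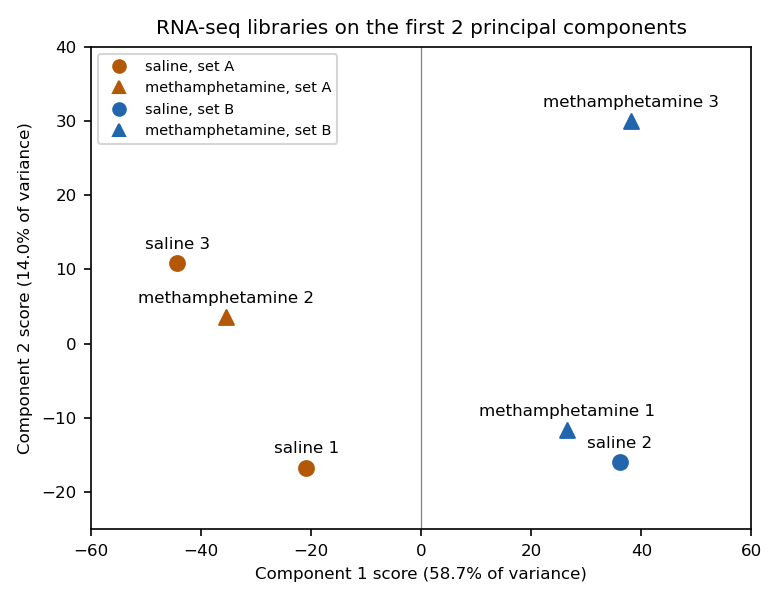
Scores of the 6 RNA-seq libraries on the first (x) and second (y) principal component of log2 CPM over 13311 genes, in component units. Colour gives the set and shape the treatment; set A lies left of 0 and set B right of it, with a saline and a methamphetamine library on each side.

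For 5762 genes (43.3% of 13311) the 3 values of one set all lay outside the range of the other, a property called no overlap below. Set B was higher for 3370 of them (25.3%) and lower for 2392 (18.0%). With a difference of at least 1 on the log2 scale besides, 617 genes (4.64%) were higher and 445 (3.34%) lower in set B. Grouped by treatment, the same 6 libraries gave no overlap for 630 genes (4.73%), 354 higher (2.66%) and 276 lower (2.07%) in methamphetamine. The median size of the difference was 0.33 between the sets and 0.15 between the treatments (log2). Within saline and within methamphetamine taken apart, 1872 genes (14.1%) were higher in set B by more than 0.5 in both, and 1136 (8.53%) were lower in both. Since the sets were chosen by this spread, these counts describe its size and nothing more. Scaling bore on the direction: set B was the higher set in 58.5% of the non-overlapping genes on the deposited scale and in 80.9% after scaling to the read totals, which moved the median difference of all genes by 0.20. Differences are therefore to be read against the median of all genes, which was 0.05 on the deposited scale, with quartiles of -0.27 and 0.40. At the level threshold, Vegfd (1.00) and Slc9b2 (1.00) were the last genes inside, and Kif4 (0.999) and Baiap2l1 (0.999) the first outside, in mean log2 CPM.

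The genes that stood highest in set B at a mean log2 CPM of at least 4 were led by ribosomal protein genes and genes of the mitochondrial respiratory chain. Rps24 (chromosome 14, 24487125 to 24496959, plus strand, GRCm38), which encodes a protein of the small ribosomal subunit, had 4.29, 3.40 and 3.88 log2 CPM in saline 1, saline 3 and methamphetamine 2 of set A. In set B it had 6.91, 7.00 and 6.19 in saline 2, methamphetamine 1 and methamphetamine 3, a 7.18-fold difference. Every set B library lay above every set A library. Rpl35a (chromosome 16, 33056453 to 33060189, plus strand), of the large subunit, had 4.43, 3.25 and 3.02 in set A in the same order and 6.34, 5.86 and 5.85 in set B. Cox6b1 (chromosome 7, 30616861 to 30626151, minus strand), a subunit of cytochrome c oxidase, had 4.83, 4.34 and 4.15 in set A and 6.54, 6.55 and 6.12 in set B, a 3.91-fold difference. Both genes separated the sets by more than the spread within either set. Next to them stood Rps15a (difference 1.80, log2), the respiratory chain genes Ndufa2 (1.87) and Atp5o (1.82), and Atp6v1a (1.85), a subunit of the proton pump that acidifies vesicles. Others of the 12 were Vsnl1 (2.13), a neuronal calcium sensor, Gpm6a (1.91), a neuronal membrane glycoprotein, Gabarapl2 (1.79), an autophagy protein, Selenok (1.98), a selenoprotein of the endoplasmic reticulum, and the ubiquitin ligase gene Rnf13 (1.85). For Vsnl1 the reads were 89, 65 and 90 in set A and 432, 388 and 520 in set B.

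Among less abundant genes, with a mean log2 CPM from 1 to under 4, Psma2, a subunit of the proteasome core, led the higher side with 8, 1 and 4 reads in set A and 55, 44 and 32 in set B. The others were Spp1 (osteopontin; difference 2.72, log2), Ublcp1 (2.67), a phosphatase that acts on the proteasome, Hat1 (2.49), a histone acetyltransferase, and Igip (2.47). Counts this small leave wide counting error in each library, so their exact size is loose.

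The genes that stood lowest in set B included genes better known from other tissues or from dividing cells. Ppm1n (chromosome 7, 19276805 to 19280064, minus strand), a phosphatase gene, had 5.60, 6.14 and 5.39 log2 CPM in set A and 2.69, 1.32 and 3.16 in set B, 9.98-fold lower. Grrp1 (chromosome 4, 134251110 to 134254106, minus strand) had 9.04, 8.86 and 8.96 in set A and 6.83, 6.68 and 5.08 in set B. Set A was even for this gene, with an SD of 0.09, and methamphetamine 3 was the lowest library of set B. Arhgef28 (chromosome 13, 97899469 to 98206439, minus strand), a guanine nucleotide exchange factor, was among the most-read genes of the tables. It had 63001, 123016 and 105884 reads in set A and 26032, 33838 and 11708 in set B, a 5.38-fold difference in CPM. The other genes of the 12 included the cell division genes Prc1 (-2.40) and Ccne2 (-2.29), the meiotic cohesin gene Stag3 (-2.36), the cilium gene Cfap299 (-2.56) and Dmp1 (-2.33), a matrix protein of bone and tooth. Oit3 (-2.24), Avpi1 (-2.50), Gtf2e2 (-2.43) and Fancd2os (-2.34) completed them, all as set B minus set A on the log2 scale. In the lower range of levels, the potassium channel gene Kcnk18 had 24, 55 and 35 reads in set A and 1, 2 and 4 in set B. Efcab11 (-3.10), Klf14 (-2.59), Tmem30c (-2.59) and Sytl3 (-2.55) were the other genes of that range.

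**Figure D2:**
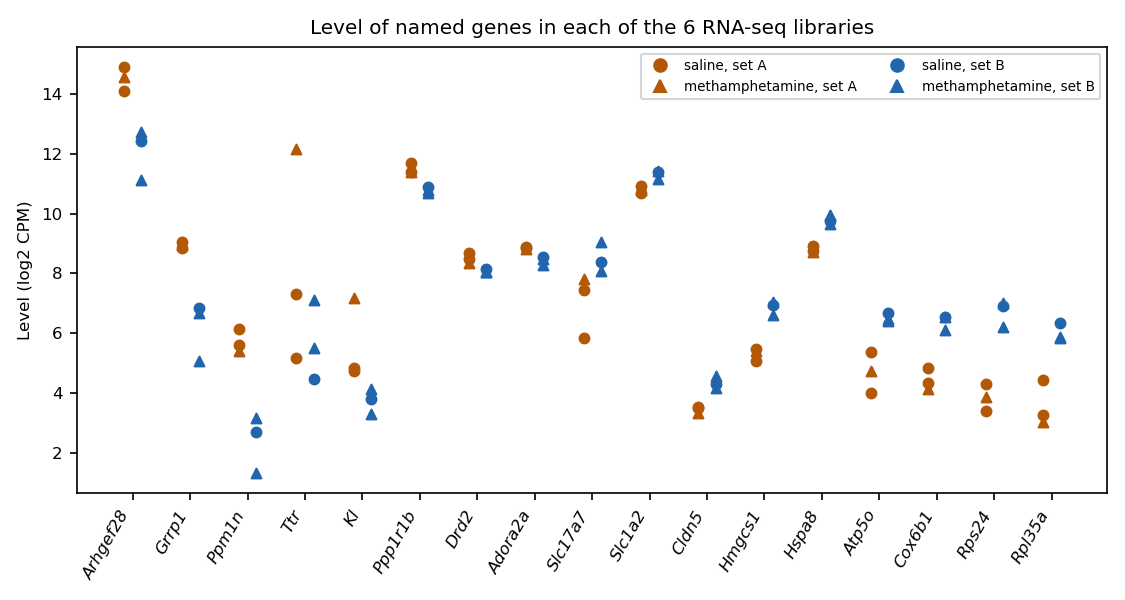
Level of 17 genes (log2 CPM, y) in each of the 6 RNA-seq libraries, one point per library, with set A on the left and set B on the right of each gene name; shape gives the treatment. Rps24 and Cox6b1 stand higher and Arhgef28 and Ppm1n lower in every set B library, while the choroid plexus gene Ttr is high in methamphetamine 2 alone.

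Markers of cortical excitatory neurons stood higher in set B. All 15 passed the level filter, 6 lay above set A without overlap and 0 below, and the median difference was 0.85 (log2), with 0.89 within saline and 0.42 within methamphetamine. Slc17a7, the vesicular glutamate transporter of cortical neurons, had 618, 230 and 979 reads in set A and 1597, 1363 and 2742 in set B. In log2 CPM these were 7.44, 5.84 and 7.81 against 8.40, 8.09 and 9.05, so methamphetamine 2 of set A lay just under methamphetamine 1 of set B. Neurod6, a transcription factor of these neurons, had 9, 2 and 2 reads in set A and 23, 16 and 46 in set B. Nrn1, which encodes the growth factor neuritin, differed by 2.44 and Mef2c by 0.76, both without overlap. Nptx1 overlapped, at 7.26, 6.86 and 7.86 in set A and 7.70, 7.38 and 8.85 in set B, and the upper-layer gene Cux2 differed by -0.03. Summed over the list, set A libraries held 346 to 718 CPM of their read totals and set B libraries 810 to 1551. The highest cortical level was that of methamphetamine 3 and the lowest that of saline 3. No marker of the list had a library at 0. Thalamic excitatory markers, of which 6 of 8 passed, had a median of 0.70 with 3 above set A and 0 below, and methamphetamine 1 had by far the highest summed level. Prkcd, a kinase of thalamic neurons, had 31, 34 and 29 reads in set A and 66, 343 and 66 in set B. Ramp3 had 13, 19 and 20 reads in set A and 38, 187 and 58 in set B. The list summed to 35.0 to 48.8 CPM in set A, and to 60.7, 163 and 57.0 CPM in saline 2, methamphetamine 1 and methamphetamine 3 of set B. Slc17a6 and Slitrk6 were at 0 in at least 1 library. Septal and hypothalamic markers showed no gene without overlap among 7 that passed, with a median of 0.11. How far such neighbouring tissue takes part in the set difference was not tested.

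Markers shared by both classes of spiny projection neurons stood lower in set B. All 14 passed, 10 lay below set A and 1 above it, and the median was -0.40 (-0.44 within saline, -0.32 within methamphetamine). The background over all genes was 18.0% below and 25.3% above. Ppp1r1b had 11.40, 11.70 and 11.41 log2 CPM in set A and 10.88, 10.69 and 10.79 in set B, 1.64-fold lower. Adcy5, the main striatal adenylyl cyclase, had 11.46, 11.67 and 11.54 in set A and 10.95, 10.80 and 10.96 in set B. For Ppp1r1b and Adcy5 every set B library lay below every set A library, though by less than in the genes named above. Pde10a, the phosphodiesterase of spiny neurons, overlapped at a difference of -0.19, which became 0.0027 after scaling to the read totals. The list summed to 12747 to 13839 CPM across set A and to 10540 to 11475 across set B. Among indirect-pathway markers 3 of 5 lay below set A and 0 above (median -0.41), but their summed level overlapped, at 1364 to 1586 CPM for set A and 1333 to 1560 for set B. Drd2, the D2 receptor, had 8.47, 8.68 and 8.35 in set A and 8.16, 8.05 and 8.06 in set B. Adora2a, an adenosine receptor, had 8.84, 8.88 and 8.82 against 8.55, 8.49 and 8.29. The opioid peptide gene Penk overlapped, with a difference of -0.05. Direct-pathway markers were lower in 2 of 7 and higher in 0, with a median of -0.23 that was 0.04 within methamphetamine. Drd1, the D1 receptor, overlapped at 7.46, 7.32 and 7.11 in set A and 7.26, 7.24 and 7.22 in set B. Tac1, the substance P gene of the same class, had 7.92, 7.91 and 7.87 against 7.34, 7.51 and 7.57.

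Interneuron markers had a median of 0.49, with 4 of 13 above set A (30.8%) and 1 below (7.69%). Over all genes these shares were 25.3% and 18.0%. The list summed to 466 to 574 CPM in set A and to 619 to 846 in set B. Pvalb, of fast-spiking interneurons, overlapped, and its 1150 reads in methamphetamine 1 stood against 44 to 180 in the other 5 libraries. Sst, the somatostatin gene, overlapped too, at 8.40, 7.94 and 8.30 in set A and 8.18, 8.36 and 8.99 in set B. Midbrain dopamine markers gave 1 of 4 above and 1 below, with a median of -0.19 that was 0.14 within saline. Markers of neuroblasts and dividing progenitors gave 0 of 7 in either direction, with a median of -0.14 that was 0.36 within methamphetamine.

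Markers of astrocytes, oligodendrocytes and endothelium lay above set A more often than the 25.3% of all genes, and those of the other glial and vascular cells did not. Of 12 astrocyte markers 7 lay above set A and 0 below, with a median of 0.52. Slc1a2, the main astrocyte glutamate transporter, had 10.92, 10.68 and 10.80 log2 CPM in set A and 11.38, 11.17 and 11.44 in set B. Aldoc, an aldolase enriched in astrocytes, had 8.10, 7.46 and 7.75 in set A and 8.88, 8.88 and 8.87 in set B, a 2.16-fold difference. Set B varied by an SD of only 0.01 for Aldoc. Of 11 oligodendrocyte markers 5 lay above and 0 below (median 0.56). The myelin gene Mbp overlapped, with 11538, 32589 and 22106 reads in set A and 18414, 38360 and 29620 in set B. The list's summed level overlapped as well, at 4709 to 10904 CPM (set A) and 7208 to 13002 (set B). Oligodendrocyte precursor markers gave 0 of 7 above and 1 below, with a median of -0.15 that was 0.04 after scaling to the read totals and 0.14 within methamphetamine. Microglial markers had 3 of 12 above and 0 below (median 0.21), though their summed level lay apart, at 372 to 396 CPM (set A) and 482 to 539 (set B). Endothelial markers had 7 of 10 above and 0 below (median 0.80), and their summed level was 80.8 to 94.5 CPM for set A and 133 to 200 for set B. Cldn5, a tight junction protein of the blood-brain barrier, had 3.51, 3.53 and 3.35 in set A and 4.30, 4.57 and 4.17 in set B. Pericyte and smooth muscle markers were mixed, with 2 of 9 above and 1 below (median 0.30). Vtn, expressed in pericytes, differed by 0.53 and Pdgfrb, their receptor for PDGF-B, by -0.40.

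The summed level of choroid plexus markers was set by 1 library. The gene of the thyroid hormone carrier transthyretin, Ttr, had 20129 reads in methamphetamine 2 of set A, 561 and 144 in saline 1 and 3, and 104, 689 and 234 in set B. The sets overlapped for Ttr in spite of a difference of -2.52. The list summed to 4877 CPM in methamphetamine 2 and to 148 to 302 in the other 5 libraries. Of 8 markers that passed out of 15, 4 lay below set A and 0 above; the median was -1.82, being -0.97 within saline, where methamphetamine 2 takes no part, and -3.35 within methamphetamine. Kl, which encodes klotho, a coreceptor for a hormone of phosphate balance, had 4.83, 4.74 and 7.17 log2 CPM in set A and 3.79, 4.13 and 3.28 in set B. Kcne2, Prlr, Sostdc1 and Kcnj13 had at least 1 library at 0. The fibroblast markers Igf2 and Igfbp2 were also highest in methamphetamine 2, at 878 and 831 reads, against 154 to 304 and 73 to 115 in the other 5. Ependymal markers were lower in set B in 3 of 6 and higher in 0 (median -0.95). Foxj1, the master factor of motile cilia, had 4.41, 5.51 and 5.68 in set A and 3.26, 4.08 and 4.11 in set B. Genes of the ciliary axoneme followed with 13 of 38 below and 1 above (median -0.30).

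Genes of protein synthesis, energy supply and protein breakdown stood higher in set B. Of 83 cytosolic ribosomal protein genes that passed, 49 lay above set A and 8 below, with a median of 0.43, and the class summed to 9943 to 10973 CPM (set A) and to 13989 to 15189 (set B). Rpl32, an abundant member, ran the other way, at 9.30, 9.52 and 9.43 log2 CPM in set A and 8.83, 9.24 and 9.13 in set B. Mitochondrial ribosomal protein genes had 30 of 77 above and 2 below (median 0.28). Nuclear genes of oxidative phosphorylation had 50 of 92 above and 3 below (median 0.53). Atp5a1, the alpha subunit of ATP synthase, had 9.16, 8.46 and 8.69 in set A and 9.60, 9.41 and 9.22 in set B, while Cox6a1, of cytochrome c oxidase, differed by -0.51. Proteasome subunits had 25 of 38 above and 3 below (median 0.60), again with an abundant exception, Psmd4, the ubiquitin receptor of the proteasome, at -1.03. Within saline and within methamphetamine the medians of these 4 classes lay between 0.29 and 0.70, all higher in set B.

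Glycolytic enzymes had 9 of 15 above and 1 below (median 0.33). Aldoa, an aldolase, had 9.81, 9.44 and 9.52 in set A and 10.13, 10.11 and 10.19 in set B, whereas Pkm, pyruvate kinase, differed by -0.32. Cholesterol synthesis genes had 11 of 15 above and 1 below (median 0.70). Hmgcs1, which makes HMG-CoA for this pathway, had 5.48, 5.06 and 5.39 in set A and 6.93, 6.61 and 7.03 in set B, a 2.93-fold difference. The summed level of the list went against its median, at 1391 to 1822 CPM for set A and 922 to 1294 for set B. Chaperone genes had 5 of 11 above and 0 below (median 0.26), although the median was 0.02 within saline. Hspa8, the constitutive HSC70, had 8.92, 8.76 and 8.72 in set A and 9.77, 9.66 and 9.96 in set B. Tubulin genes had 11 of 19 above and 0 below (median 0.56), led among abundant members by Tuba1a, at 8.13, 8.17 and 8.11 against 9.08, 9.18 and 9.50. The list was drawn by symbol (Tuba, Tubb and Tubg), a pattern that also takes in genes of the gamma-tubulin complex.

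Synaptic genes were divided. Of 22 genes of vesicle release 10 lay above set A and 2 below (median 0.35). Syt1, the calcium sensor of release, had 9.60, 9.38 and 9.36 in set A and 9.77, 9.68 and 10.20 in set B, and Snap25 differed by 0.32, but Cplx2, a complexin, by -0.40. GABA receptor and synthesis genes had 8 of 16 above and 2 below (median 0.45). Gad1, which makes GABA, had 8.97, 8.81 and 8.79 in set A and 9.29, 9.91 and 9.06 in set B. The vesicular GABA transporter gene Slc32a1 differed by -0.26. Glutamate receptors had 9 of 26 above and 4 below (median 0.16). More postsynaptic scaffolds lay below set A than above, with 6 of 15 below and 3 above (median -0.27). Their summed level overlapped, at 5310 to 5704 CPM for set A and 4322 to 5786 for set B. Differences ran from -0.84 for Dlgap3 to 0.65 for Dlg1. Shank3 had 9.38, 9.42 and 9.38 in set A and 8.73, 8.39 and 8.84 in set B. Dlgap3, a scaffold abundant in striatum, had 10.34, 10.53 and 10.53 against 9.60, 9.45 and 9.85. Clustered protocadherins, whose genes share exons within a cluster and so may share reads, had 32 of 55 above and 2 below (median 0.21).

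Collagens, replication-dependent histones and clock genes were lower in set B. Collagen genes had 17 of 38 below and 0 above (median -0.79), and the class summed to 699 to 891 CPM for set A and 498 to 578 for set B. The list was drawn by gene symbol and so also holds Col4a3bp (-0.16), which is not a collagen gene. All values given for collagens as a class include it. Col11a2 had 5.67, 6.23 and 5.94 in set A and 4.94, 5.06 and 5.18 in set B, whereas the fibrillar collagens Col1a1 (-0.31) and Col1a2 (-0.32) overlapped. Replication-dependent histones had 4 of 7 below and 0 above (median -0.74, being -1.18 within saline and -0.33 within methamphetamine). Hist1h2bp had 7.78, 8.27 and 7.67 in set A and 6.60, 7.16 and 6.90 in set B. Near-identical histone copies may share reads. Clock genes had 8 of 15 below and 2 above (median -0.28). Per1, a repressor arm gene of the clock, had 7.99, 7.80 and 7.64 in set A and 7.20, 7.32 and 7.61 in set B, and Nr1d1, which encodes REV-ERB alpha, differed by -0.37. Immediate early genes, the transcripts first induced by neuronal activity, mostly overlapped. Of 20, 1 lay below, Homer1, and 0 above, against 18.0% of all genes below, and the median of -0.20 was 0.02 within methamphetamine. Fos overlapped at 4.64, 4.64 and 5.17 in set A and 4.22, 5.16 and 5.81 in set B, and so did Egr1 and Arc.

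The medians of the next lists lay between the quartiles of all genes. Zinc finger proteins had 49 of 250 above and 43 below (median -0.03), potassium channels 18 of 75 above and 13 below (median 0.00), and calcium channels 5 of 25 above and 8 below (median -0.04). Kinesins gave 4 of 28 above and 6 below (median -0.12), and after scaling to the read totals the medians were 0.17 for zinc fingers, 0.15 for calcium channels and 0.07 for kinesins. Among 12 sodium channel genes 1 lay above and 1 below. The latter was Scn4b, a beta subunit abundant in striatum, at 10.93, 11.07 and 10.96 against 10.48, 10.45 and 10.07. Genes of hnRNP proteins had 3 of 21 above and 4 below (median -0.06, or 0.13 after scaling to the read totals), with Hnrnpu at -0.74, and SR splicing factors had 3 of 11 above and 2 below (median -0.20, being -0.47 within saline and 0.05 within methamphetamine). Glucocorticoid-responsive genes had 2 of 11 above and 1 below (median 0.07), and red blood cell markers 1 of 4 above and 0 below (median 0.22). Interferon-response genes were split, with 2 of 5 above and 0 below but a median of -0.28 (-0.26 within saline, -0.19 within methamphetamine), under the lower quartile of all genes.

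**Figure D3:**
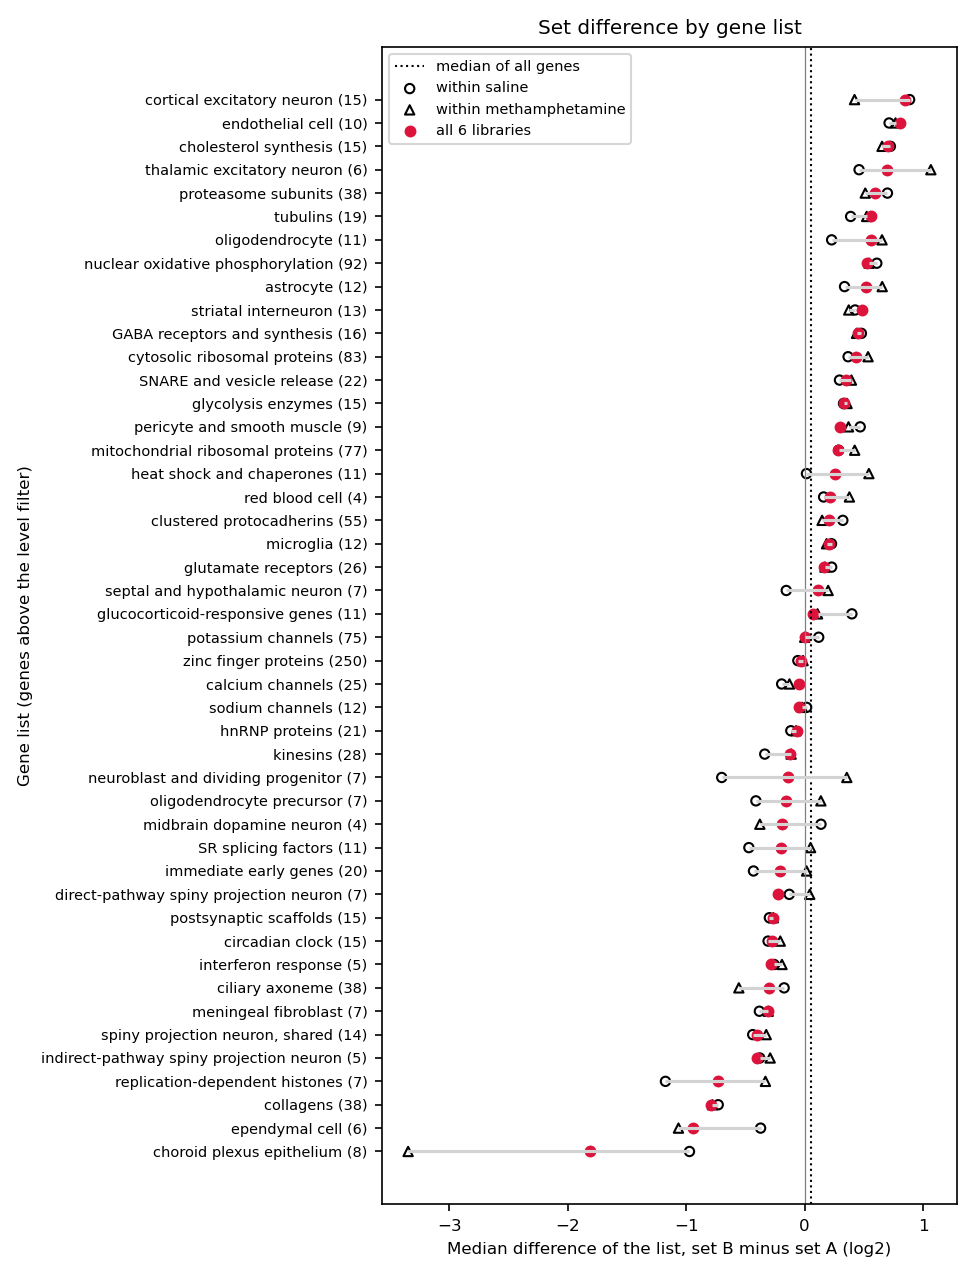
Median set difference (set B minus set A, log2, x) of each fixed gene list (y, with the number of genes above the level filter); filled points use all 6 libraries, open circles saline 2 against saline 1 and 3, open triangles methamphetamine 1 and 3 against methamphetamine 2, and the dotted line is the median of all genes, 0.05. Cortical, endothelial and cholesterol lists lie on the right, while collagens and choroid plexus lie on the left, the last with -3.35 within methamphetamine.

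Male-specific transcripts did not move as a block. Each pool held tissue of both sexes. Ddx3y, under the level filter, had 1, 1 and 6 reads in set A and 19, 12 and 18 in set B. Kdm5d, also Y-linked, ran the other way with 111, 73 and 94 reads in set A and 46, 63 and 51 in set B.

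Transcript base composition differed along with the sets. Across 13117 genes with an annotated transcript, the Spearman correlation of the set difference with GC content was -0.43, against -0.00053 with transcript length and -0.07 with mean level; all genes of a library share its preparation. In 5 bins of equal size by GC content, the bin of lowest GC had a median difference of 0.36; 41.9% of its genes lay above set A and 8.38% below. In the bin of highest GC the median was -0.27, 6.71% lay above and 38.2% below. The middle bins fell in order between them, at 0.23, 0.10 and -0.05. By library, the highest minus the lowest bin was 0.15, 0.42 and 0.34 in saline 1, saline 3 and methamphetamine 2, and -0.44, -0.27 and -0.21 in saline 2, methamphetamine 1 and methamphetamine 3. The sign followed the set in all 6 libraries. After the median of its own GC bin was taken from each gene, a step added after seeing the data, cortical markers had a median of 0.72, shared spiny projection markers -0.46, ribosomal proteins 0.41, oxidative phosphorylation genes 0.45, cholesterol genes 0.48 and collagens -0.63. The order of the spiny projection classes turned: the direct-pathway median went from -0.23 to -0.46 and the indirect-pathway median from -0.41 to -0.22. Oligodendrocyte precursor markers went from -0.15 to 0.12. For GABA genes, whose median GC content was 43.5%, the median went from 0.45 to 0.09, and for chaperones from 0.26 to 0.10. Rps24 remained at 2.48 and Arhgef28 at -2.52. Whether base composition, RNA quality or cell content sets the libraries apart was not tested.

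**Figure D4:**
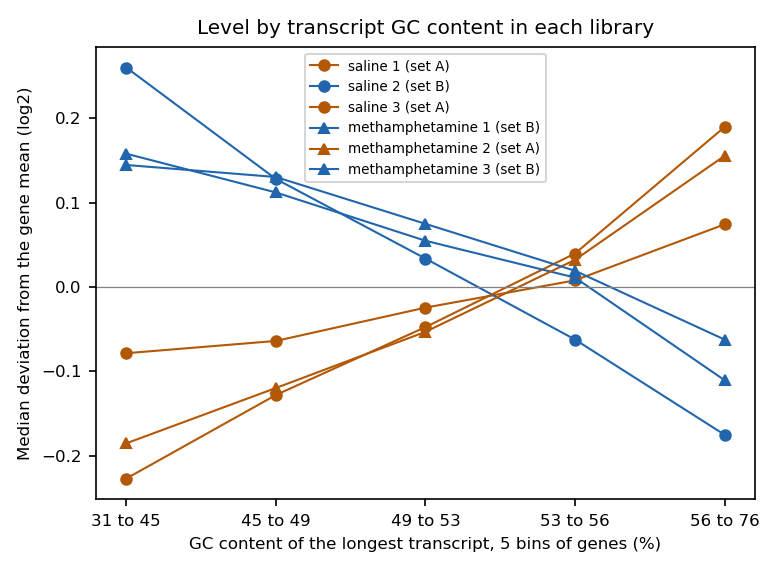
Median deviation of a library's log2 CPM from the gene mean (y, log2) in 5 bins of genes by the GC content of the longest transcript (x, %), one line per RNA-seq library. The 3 set A lines rise from left to right and the 3 set B lines fall.

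The most-read genes were mostly lower in set B. Of the 30 genes with the highest mean level, 19 lay below set A and 2 above on the deposited scale (median -0.53), where 18.0% and 25.3% of all genes did. The count was not made on read totals. These genes, outside the fixed rule, were chosen after their values were seen. Pappa, a secreted protease that cleaves IGF-binding proteins, had 122200, 213455 and 185944 reads in set A and 99686, 119455 and 54745 in set B. It took 3.11, 4.55 and 3.81% of the reads in set A against 2.12, 2.44 and 1.08% in set B. Pnck, a calcium/calmodulin-dependent kinase, had 116670, 116286 and 137424 reads against 118289, 90261 and 89731. Both lay below set A in all 3 set B libraries on the log2 CPM scale. As a share of the reads Pnck overlapped, at 2.96, 2.48 and 2.81% in set A and 2.52, 1.84 and 1.76% in set B. Gon7 and the gene model Gm20604 overlap on chromosome 12 and had nearly the same reads, and so did Mtcp1 and Cmc4, which overlap on chromosome X. With each of these 2 pairs counted once, 18 of 28 genes lay below set A and 2 above. The 2 genes that lay above were Ubb, a ubiquitin gene, with 8429, 6066 and 7221 reads in set A and 19668, 18250 and 23371 in set B, and Ccdc107. An exon of Ccdc107 overlaps the gene of the RNA component of RNase MRP, Rmrp, by 124 bases on the opposite strand, and one of Ccnb1ip1 overlaps that of RNase P, Rpph1, by 233 bases. Counts of both genes may include reads of those RNAs. Such overlap with an annotated small RNA gene was found for 2 of the 30 genes and for 2.86% of all 13311.

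The CLIP-seq libraries came from the same pools, crosslinked and precipitated with an antibody to the RNA-binding protein hnRNP H, and took no part in choosing the sets. Over 8374 genes with at least 60 reads in peaks, 2215 (26.5%) showed no overlap between the sets, 892 higher (10.7%) and 1323 lower (15.8%) in set B. That balance depended on the reads added before the log: with 5 in place of 0.5, 1357 genes were higher and 963 lower. CLIP totals ranged from 423057 to 1635338 peak reads, and the lowest was that of saline 2 of set B. Across 6631 genes measured in both assays, which share pools, the 2 set differences had a Spearman correlation of -0.03. Of 748 genes without overlap in both assays, 351 had the same direction. Slc17a7 was higher in set B in both, with 12, 50 and 24 CLIP reads in set A and 18, 59 and 30 in set B. The cortical markers as a list did not follow it. Of 9 measured in CLIP, 1 lay above set A and 1 below, with a median of -0.28. The latter was Nrn1, at -0.52 in CLIP against 2.44 in RNA-seq. Ppp1r1b overlapped in CLIP, with 177, 325 and 218 reads in set A and 77, 268 and 100 in set B. Atp5o was higher in set B in RNA-seq and overlapped in CLIP, at 3484, 5531 and 3166 reads against 475, 988 and 1947. As annotated, this gene spans 91684398 to 91926982 on chromosome 16, with a longest transcript of 932 bases. Its CLIP reads are summed over all peaks assigned to that span, and where those peaks lie was not examined. Clustered protocadherins were the list with the most CLIP genes above set A, 17 of 29 with 0 below, and ribosomal proteins had 9 of 18 above and 2 below. Collagens had 5 of 26 above and 9 below, and axoneme genes 1 of 19 above and 8 below.

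**Figure D5:**
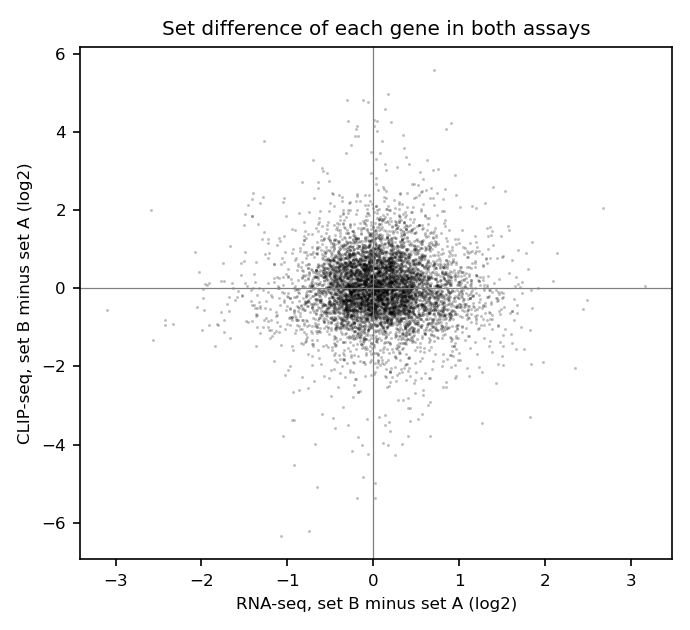
Set difference (set B minus set A, log2) of each of 6631 genes in RNA-seq (x) and in CLIP-seq (y), one point per gene. The points form a round cloud around 0 with no slope, Spearman correlation -0.03.

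The labelled comparison, methamphetamine against saline, was not used to choose the sets and can be tested. With limma on all 18208 genes, 0 genes (0%) had a Benjamini-Hochberg adjusted p under 0.05 and 276 (1.52%) an unadjusted p under 0.05. With the set as a covariate the counts were 0 and 541. On the recovered reads, edgeR's quasi-likelihood test gave 0 and 109 and DESeq2 0 and 103. The p-values measure the spread between these pools, and each treatment holds libraries of both sets. The immediate early gene Btg2 had the smallest unadjusted p, at 2.38, 2.78 and 2.54 log2 CPM in saline 1, 2 and 3 and 3.86, 3.69 and 3.99 in methamphetamine 1, 2 and 3. Its log2 change was 1.28 with a standard error of 0.26 and a limma adjusted p of 0.999825, higher in 3 of 3 methamphetamine pools. Srd5a2 (log2 change -2.85) and 1700029P11Rik (-2.35) followed, both under the level threshold used for the sets.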

How the data were processed

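For RNA-seq, the authors deposited log2 CPM (counts scaled to a common library size and logged, called voom in the labels) of 18208 genes in 6 libraries. The submitters' processing notes name Trimmomatic, UMI-tools, STAR, bedtools, Subread, featureCounts, limma, edgeR and the mm10 build, without roles; whether counting used strand is not given in the sources used here. Per the labels' protocols, the RNA-seq libraries were sequenced again to add reads. With an offset of 0.5 reads, 100% of the deposited log2 values gave back whole reads (tolerance 0.01), which served for read totals and counts. TMM factors computed on these reads gave the deposited scaling. The deposited CLIP-seq table holds counts per peak; its 147438 distinct positions were summed by gene and used as log2 CPM with 0.5 reads added, for genes with at least 60 reads.

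The sets follow the first principal component of centred, unscaled log2 CPM over genes with a mean of at least 1. A fold is 2 raised to the difference of mean log2 CPM. Summed levels of lists are CPM of the recovered read totals. GC content is that of the longest GENCODE M21 transcript; 98.5% of genes matched by symbol, and coordinates are GRCm38. Treatment was tested with limma 3.58.1 (mean-variance trend, Benjamini-Hochberg over all genes), with edgeR 4.0.16 and DESeq2 1.42.0 on recovered reads as alternatives, in R 4.3.3. The fit was tested on simulated data. Descriptions used pandas 2.3.3 and scipy 1.17.1.

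The sets, members and lists were chosen with earlier results of these data known. The text names the 12 genes with the largest difference in each direction at a mean log2 CPM of at least 4, the 5 at 1 to under 4, up to 4 most abundant members of each list, a few fixed genes, the 3 genes of smallest treatment p and the 5 of largest loading of each sign on the first component; other named genes were chosen after their values were seen. Lists of mitochondrially encoded genes, small RNAs and nuclear long non-coding RNAs had no gene in the RNA-seq table given here and were not analysed here. Alternatives covered scaling, the reads added, the level filter, unit variance, the replicate block, each library left out and, added after seeing the data, the GC bins.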

Additional observations from a re-analysis of the deposited data

Results flagged for a closer look

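Between the treatments, 13 of 232 lists and genes examined had set differences of opposite sign, with every set B library on one side of set A within saline and on the other within methamphetamine. With 1 library alone in a set of each treatment, such an order can readily arise without a real difference. The share over all genes was not counted, and these differences between treatments were not tested. Given as the difference within methamphetamine minus that within saline (log2), they were 0.28 for the mean of the SR splicing factors, 0.80 for Tcf7l2, 2.31 for Trh, 0.25 for Drd1, 0.74 for Dlx1, 1.68 for Mki67 and 0.72 for Olig2. Alas2 gave 1.14, Rps29 0.30, Mrpl12 0.28, Eno2 0.23 and Kif5a 0.65. Enpp2, a choroid plexus and oligodendrocyte gene, was the one of opposite order, at -2.36, with 1382 reads in methamphetamine 2 and 152 to 514 in the other 5 libraries.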

How the results depend on the processing

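The sets lay on opposite sides of the first component in every setting. Its share was 62.4% with read totals, 60.1% with 5 reads added, 65.6% at a mean log2 CPM of at least 4, 41.4% with no filter, 47.3% at unit variance and 57.9 to 64.4% with 1 library left out. The 5762 genes without overlap became 3635 at the mean of 4 (of 7853 genes), 3008 when a difference past 0.5 was asked within both treatments, and 6581 to 7549 with 1 library left out, where fewer values have to be ordered. Set B was higher in 80.9% of them with read totals, 52.7% with DESeq2 size factors, 54.9% with 5 reads added, 56.9% at the mean of 4, 51.2% with no filter and 55.5 to 58.8% with 1 library left out. For CLIP, 2215 became 1039 at 300 reads or more and 2692 to 3635 with 1 library left out; with 5 reads added (2320) the balance turned from 892 higher and 1323 lower to 1357 and 963. The treatment count was 0 in all 14 alternatives, and the genes with unadjusted p under 0.05 numbered 103 to 958, most without methamphetamine 2 (958) or saline 2 (928).

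The replicate block gave 0 genes, 144 unadjusted. Deviations of same-numbered pools correlated at -0.24, -0.73 and -0.42. Each such pair holds a pool of set A and a pool of set B, and the sets were read from these same values. The correlations therefore cannot tell whether the numbers link pools.

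Among differences larger than the spread within sets, list medians changed sign with read totals for calcium channels (0.15), zinc fingers (0.17) and kinesins (0.0716), with GC bins for calcium channels (0.0068), without methamphetamine 1 for zinc fingers (0.0041, lowest -0.0379 without saline 1), and within methamphetamine for SR splicing factors (0.0505) and direct-pathway markers (0.0433). Named genes did so with read totals (Pde10a 0.0027, Mrpl48 0.14, Grin1 0.0943, Hnrnpul2 0.0395, Col4a3bp 0.0351), with GC bins (Ddit4 0.0626, Grin1 0.17, Slc32a1 0.0081, Snap25 -0.0408, Zfp106 -0.0449), within methamphetamine (Gpr6 0.0147) and within saline (Hsp90ab1 -0.0101). Differences within that spread changed sign too, in at least 1 setting for 9 lists (24 values) and 51 named genes (173 values, 24 of them with GC bins). The causes were not tested. Beside the sign changes past the spread, 343 list and gene values moved by more than the spread within sets and 3147 did not. Low counts limit genes under about 20 reads, and, as no label gives preparation batches, the sets and any such batch cannot be told apart.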
